A study of Mus musculus with 17 samples.

Results

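The vascular endothelial growth factor (VEGF) and angiopoietin genes were followed across the mouse skin and kidney libraries of a study of fibrosis. The 10 genes, chosen by name, were the ligands Vegfa, Vegfb and Vegfc, their receptors Kdr, Flt1 and Flt4, the co-receptor Nrp1, the ligands Angpt1 and Angpt2, and the receptor Tek. They were 10 of the 30406 genes that all 17 single-cell RNA libraries shared.

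Every mouse carried PDGFRb-Cre and the Z/EG reporter, which marks cells in which Cre has acted with GFP, and was labelled either SARATg, with the SARA transgene, or SARAWT, without it. The mice were 8 weeks old. In skin, 3 SARAWT libraries came from PBS injection and 3 from bleomycin, a drug that scars skin, given subcutaneously at 20 mg/kg on 3 days of each week over 2 weeks per the labels, and SARATg contributed 1 library for PBS and 1 for bleomycin. In kidney, 3 SARAWT libraries came from vehicle and 3 from aristolochic acid (AA), a plant toxin that injures tubules, given intraperitoneally at 5 mg/kg on 3 days of each week over 3 weeks, and SARATg contributed 2 vehicle libraries and 1 AA library. The study's methods give daily bleomycin injections instead. Tissue was digested and GFP+ cells were sorted. A cell kept GFP whether or not it still made PDGFR-β, and no source used here says whether libraries of a group were separate mice, so p-values measure the spread between libraries.

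VEGF-A binds the receptors VEGFR1 (Flt1) and VEGFR2 (Kdr). VEGFR2 drives endothelial growth and permeability, while VEGFR1 binds VEGF-A tightly with weaker signalling and also exists as a soluble decoy. VEGF-B binds VEGFR1, and VEGF-C acts on VEGFR3 (Flt4), the receptor known for lymphatic vessels. Neuropilin-1 (Nrp1) is a co-receptor for VEGF-A and class 3 semaphorins. Angiopoietin-1, made by mural and other perivascular cells, activates Tie2 (Tek) and quiets vessels, and angiopoietin-2, which endothelial cells make, opposes or mimics it depending on context. In kidney, podocytes and tubules are known sources of VEGF-A for the capillaries beside them.

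The promoters of Flt1, Kdr, Tek and Vegfa are shown because the results turn on these genes, each as the 250 bases upstream of the start of the gene from RefSeq (GRCm38.p6), 5′ to 3′ on the strand of the gene. Capitals mark AGGAAG, an ETS factor motif, and GGGCGG, a GC box, each searched on both strands, so that they also appear as CTTCCT and CCGCCC. The windows are chr5:147726012-147726261 for Flt1 (minus strand), chr5:75978456-75978705 for Kdr (minus), chr4:94739039-94739288 for Tek (plus) and chr17:46032378-46032627 for Vegfa (minus).
Flt1: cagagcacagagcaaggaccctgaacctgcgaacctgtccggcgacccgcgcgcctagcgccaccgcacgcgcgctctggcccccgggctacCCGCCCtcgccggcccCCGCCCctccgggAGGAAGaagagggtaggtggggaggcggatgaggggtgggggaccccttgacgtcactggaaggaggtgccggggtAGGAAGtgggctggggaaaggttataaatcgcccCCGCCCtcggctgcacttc
Kdr: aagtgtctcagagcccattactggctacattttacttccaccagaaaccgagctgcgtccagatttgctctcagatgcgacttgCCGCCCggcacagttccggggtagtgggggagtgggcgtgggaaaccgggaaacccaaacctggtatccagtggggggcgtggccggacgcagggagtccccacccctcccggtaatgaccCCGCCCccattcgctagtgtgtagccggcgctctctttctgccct
Tek: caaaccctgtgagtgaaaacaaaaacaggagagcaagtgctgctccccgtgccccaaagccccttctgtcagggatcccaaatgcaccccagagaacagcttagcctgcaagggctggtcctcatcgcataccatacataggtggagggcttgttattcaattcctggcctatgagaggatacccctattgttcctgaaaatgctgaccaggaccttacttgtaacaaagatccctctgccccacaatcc
Vegfa: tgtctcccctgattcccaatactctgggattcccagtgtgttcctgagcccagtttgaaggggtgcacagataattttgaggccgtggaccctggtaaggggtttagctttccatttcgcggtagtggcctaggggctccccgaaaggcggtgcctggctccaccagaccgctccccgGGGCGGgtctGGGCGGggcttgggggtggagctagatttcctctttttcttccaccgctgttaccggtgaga
Flt1 held 2 ETS motifs and 3 GC boxes, Kdr and Vegfa each held 2 GC boxes and no ETS motif, and the Tek window held neither. Of 32851 mouse promoter windows of this length, 29.5% held AGGAAG and 32.7% held GGGCGG. The core of the hypoxia response element, ACGTG on either strand, was in 16.6% of all windows and in none of the 8 members that had an entry. Angpt1 and Angpt2 had no entry. A match describes letters only.

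On GRCm38 the VEGF receptor genes Kdr (chr5:75932827-75978458, minus strand) and Flt1 (chr5:147561604-147726011, minus) share chromosome 5, and Flt4 lies at chr11:49609263-49652739 (plus). The ligand genes lie at chr17:46016993-46032369 (Vegfa, minus), chr19:6982473-6987651 (Vegfb, minus) and chr8:54077606-54187096 (Vegfc, plus). Angpt2 (chr8:18690263-18741562, minus) and Nrp1 (chr8:128358604-128503363, plus) are on chromosome 8 too, Angpt1 is at chr15:42424723-42676977 (minus), and Tek is at chr4:94739289-94874976 (plus). All 10 are annotated as protein coding. Reads were 3′ tags summed per gene, so soluble and membrane Flt1, or the isoforms of Vegfa, were not separated.

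The skin libraries held 781 to 6548 kept cells and 3355217 to 69765525 unique molecules (UMIs), and the kidney libraries held 4003 to 10057 cells and 28660151 to 137093834 UMIs. Cells were placed in classes by marker genes that exclude all members, which placed 62.7% of skin and 87.5% of kidney cells. The labelled identity, PDGFRb+GFP+, did not match most cells: the mural gate held 140 skin and 55 kidney cells, the 2 largest kidney classes were proximal tubule (20652 cells) and T, NK and innate lymphoid (17353 cells), and Pdgfrb stood at 0.219 to 3.44 CPM (UMIs of a gene per 1000000 UMIs) over all kidney cells. In skin Pdgfrb was 7.07 to 59.6 CPM over all cells, 337 to 757 CPM in mural cells and 31.4 to 198 CPM in stromal cells. The study itself reports Cre activity in leukocytes of these mice. Zfyve9, the gene of SARA, did not follow the labels. All 4 libraries counted with an entry for human ZFYVE9 are labelled SARAWT and all held UMIs of it, which goes against a label without the transgene, and without them 1 library would remain under each skin SARAWT treatment. In 4 libraries, moreover, the level stood apart from others. The libraries labelled skin SARAWT PBS 1 (838 CPM of the human entry, against 87.4 to 187 in the 3 others counted with it) and skin SARAWT PBS 3 (620 CPM of mouse Zfyve9, against 224 and 314 in the SARATg libraries) were high. The library labelled kidney SARAWT AA 1 (163 CPM) was high, and that labelled kidney SARATg AA 1 (20.6 CPM, against 96.3 and 100 under SARATg vehicle) was low. In the library labelled skin SARAWT PBS 2, 55.5% of cell barcodes also occurred in another skin library, against 17.6% and 22.1% for bleomycin 1 and 2, 7.38% for PBS 1 and at most 0.824% in the rest. The main skin results are also given without 1 or both of the libraries labelled PBS 1 and 3. Without both, PBS 2 is the 1 PBS library left, the spread comes from the bleomycin libraries, and PBS 2 is assumed to vary like them, so such a value says little of how stable a result is.

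The 3 VEGF receptors, Tek and Nrp1 had their highest mean level in the endothelial class of both tissues. Levels are CPM within a class in one library, given as the mean and SD over libraries with at least 10 cells of the class. Classes are ranked where at least 3 libraries had 10 cells. Levels serve comparison between classes and samples, not between genes. Kdr reached 557 ± 218 CPM in skin endothelial cells (SD, n = 8) and 936 ± 446 CPM in kidney endothelial cells (n = 8). Flt1 reached 679 ± 394 CPM in skin endothelial cells and 1408 ± 412 CPM in those of kidney. For Flt4 the levels were 164 ± 146 CPM in skin and 99.6 ± 30.7 CPM in kidney. Tek stood at 116 ± 30.3 CPM in skin and 335 ± 123 CPM in kidney. In the kidney the endothelial gate held 85.2% of all Kdr UMIs, 82.3% of Flt1, 79.4% of Flt4 and 83.8% of Tek UMIs. In skin, where the endothelial gate held 264 cells, it held 31.0% of Kdr, 23.0% of Flt1 and 29.1% of Tek UMIs, with 24.1% of Kdr UMIs in macrophages and monocytes and 64.3% of Tek UMIs in stromal cells. The largest holder of skin Flt1 UMIs was the cells left ungated, with 46.6% pooled and 42.2 ± 11.2% as the mean over 8 libraries. Flt4 alone among the receptors was held mostly by the endothelial gate in skin, with 77.2% of its UMIs.

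Nrp1 reached beyond the endothelium. Its mean was 311 ± 115 CPM in skin endothelial cells, and the next classes, mast cells (95.7 ± 37.8 CPM, n = 7), mural cells (90.5 ± 73.3 CPM, n = 6) and macrophages and monocytes (83.0 ± 28.5 CPM, n = 8), did not differ from each other beyond their SD. Kidney Nrp1 was 696 ± 328 CPM in endothelial cells and 72.2 ± 45.3 CPM in the thick ascending limb (n = 9). Of all Nrp1 UMIs in skin, 44.2% came from macrophages and monocytes.

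The ligands had other sources. Vegfa in skin was highest in mast cells, at 351 ± 73.7 CPM (n = 7), followed by neutrophils at 223 ± 148 CPM (n = 7), macrophages and monocytes at 121 ± 90.0 CPM and stromal cells at 120 ± 35.5 CPM (n = 8 each), and each neighbour in that order lay within 1 SD of the next. Over the 8 skin libraries, macrophages and monocytes held 35.2 ± 22.2% of Vegfa UMIs and stromal cells 25.6 ± 18.9% (SD), so their order lay within the spread. It differed by treatment, with 17.8 ± 8.53% in macrophages and monocytes and 36.1 ± 17.5% in stromal cells under SARAWT PBS, and 59.6 ± 5.66% and 8.61 ± 5.38% under bleomycin (n = 3 each), shares that also count the cells of each class. Kidney Vegfa was a tubule transcript, at 127 ± 65.0 CPM in the distal convoluted tubule gate, whose cells also carried thick ascending limb markers, 109 ± 22.3 CPM in proximal tubule (n = 9 each) and 83.5 ± 21.3 CPM in intercalated cells (n = 8). Proximal tubule supplied 86.0% of kidney Vegfa UMIs, while kidney endothelial cells stood at 7.05 ± 6.41 CPM. The 21 podocytes, too few per library for a mean, held 102 Vegfa UMIs, or 696 CPM pooled over libraries.

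Vegfb, a VEGFR1 ligand, had its highest kidney means in the distal convoluted tubule gate (244 ± 89.5 CPM), intercalated cells (225 ± 68.8 CPM) and the thick ascending limb (185 ± 40.6 CPM). Principal cells stood at 78.3 ± 17.5 CPM (n = 6) and proximal tubule at 66.7 ± 14.2 CPM. In skin its highest class means were 30.8 ± 22.8 CPM in muscle-lineage cells and 28.9 ± 39.0 CPM in endothelial cells. Vegfc, the VEGFR3 ligand, was highest in skin mast cells (164 ± 100.0 CPM), with 30.9 ± 10.1 CPM in stromal cells, which supplied 59.7% of its skin UMIs. Kidney Vegfc was highest in endothelial cells, at 49.5 ± 33.8 CPM.

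Angpt1 and Angpt2 divided between classes. Angpt2 was 182 ± 112 CPM in skin endothelial cells, 75.3 ± 32.6 CPM in mural cells, 45.8 ± 51.7 CPM in neutrophils and at most 1.73 CPM on average in the other skin classes. In kidney it was 42.1 ± 19.2 CPM in endothelial cells and at most 2.80 CPM on average in the other classes with at least 3 libraries of 10 cells, while the 55 kidney mural cells held 110 CPM pooled, and 123 and 112 CPM in the 2 libraries with at least 10 of them. Angpt1 was 50.0 ± 27.4 CPM in skin mast cells, 44.3 ± 15.1 CPM in mural cells, 30.5 ± 29.9 CPM in muscle-lineage cells and 17.8 ± 7.03 CPM in stromal cells, which held 49.9% of its skin UMIs. Among kidney classes with at least 3 libraries of 10 cells, Angpt1 had its highest mean in principal cells, at 23.7 ± 29.2 CPM (n = 6). This lay within 1 SD of the 12.7 ± 6.87 CPM in proximal tubule, which held 83.7% of kidney Angpt1 UMIs. The 43 kidney mast cells, not ranked, held 12 Angpt1 UMIs.

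**Figure D1:**
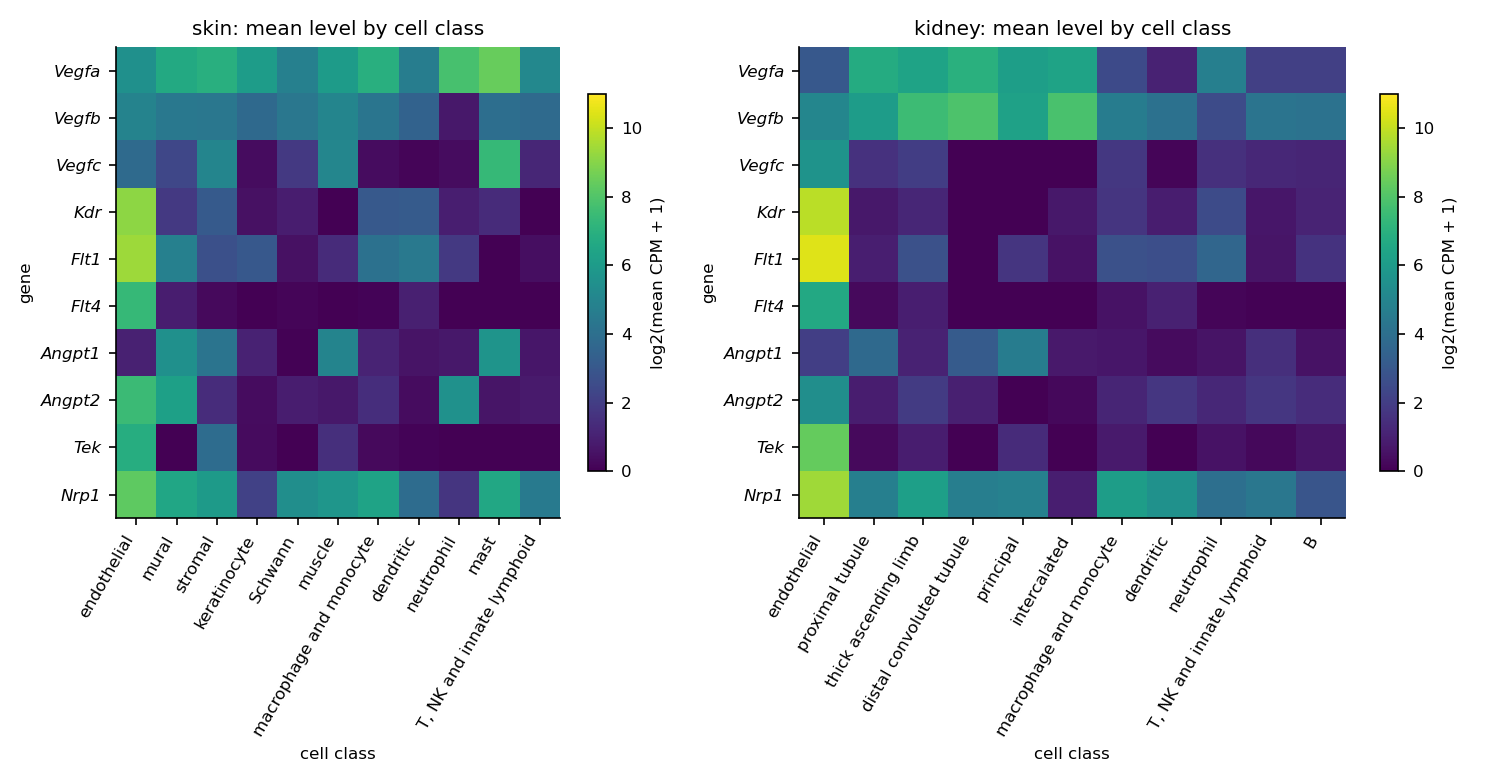
Mean level of each of the 10 genes by cell class, as log2(mean CPM + 1) over libraries with at least 10 cells of the class, for classes with at least 3 such libraries in skin (left) and kidney (right). The receptor rows Kdr, Flt1, Flt4, Tek and Nrp1 are brightest in the endothelial column of both tissues, whereas Vegfa is brightest in mast cells in skin and in tubule classes in kidney.

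Within the skin endothelial gate, bleomycin was compared with PBS in the libraries labelled SARAWT to ask how the vessel genes changed in fibrosing skin. Angpt2 rose and was the one member past the threshold, while Flt1 and the other receptors did not pass it. Angpt2 stood at 73.1, 50.1 and 76.0 CPM in the libraries labelled PBS 1, 2 and 3, and at 232, 365 and 265 CPM under bleomycin. Every bleomycin library lay above every PBS library, and the means were 66.4 ± 14.2 and 288 ± 69.2 CPM (SD, n = 3 each). How many of all genes separate in this way was not counted, here or wherever groups are said below not to overlap. The edgeR log2 fold change of Angpt2 was 2.03 (SE 0.356, 4.09-fold, Benjamini-Hochberg adjusted p = 0.0439 over 2807 genes). Of the 6 members that passed the count filter this 1 was called, beside 0.392% of all genes tested (11 genes). In SARATg, with 1 library each, Angpt2 was 155 CPM under PBS (95% exact Poisson interval 106 to 217) and 241 CPM under bleomycin (167 to 337), and such intervals cover counting error only.

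The Angpt2 call was close to the threshold. With the replicate number as a block, which the skin libraries warranted when all cells were compared, the adjusted p was 0.0728, and 0.143% of genes were called. Leaving out any 1 of the 6 libraries gave log2 fold changes of 1.81 to 2.18 and adjusted p of 0.0648 to 0.19, and the fit against PBS 2 alone, with 14 endothelial cells, gave 0.297. Without the cells whose barcodes were shared between libraries it was 0.0875. DESeq2 gave 0.0033, with 2.85% of genes called.

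Flt1 was lower under bleomycin in each endothelial library. Its levels were 1236, 1227 and 879 CPM under PBS and 452, 191 and 517 CPM under bleomycin, with means of 1114 ± 203 and 387 ± 172 CPM. The groups did not overlap, but the log2 fold change of -1.46 (SE 0.368) had an edgeR adjusted p of 0.102, and DESeq2 gave 0.0221. The SARATg libraries held 581 CPM under PBS and 348 CPM under bleomycin.

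Kdr, Tek, Nrp1 and Flt4 did not separate by treatment. Kdr was 852, 876 and 449 CPM under PBS and 581, 383 and 339 CPM under bleomycin, a log2 fold change of -0.73 (SE 0.349, edgeR adjusted p = 0.382). Tek was 183, 113 and 115 CPM under PBS against 77.5, 122 and 117 CPM under bleomycin (log2 fold change -0.35, SE 0.376, edgeR adjusted p = 0.75). These values overlapped between groups. Nrp1 was 508, 413 and 263 CPM against 245, 122 and 300 CPM (log2 fold change -0.73, SE 0.394, edgeR adjusted p = 0.447). For Flt4 the libraries spread from 25 to 161 CPM under PBS and from 69.5 to 417 CPM under bleomycin (log2 fold change 0.61, SE 0.71, edgeR adjusted p = 0.768). The sums rested on few cells, 70, 14 and 60 under PBS and 13, 10 and 34 under bleomycin, and 33 of the 264 endothelial cells of the tissue lay near the edge of the gate.

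Vegfc in endothelial cells was detected under PBS and not under bleomycin, on few UMIs. It was 32.9, 25 and 30.4 CPM in the libraries labelled PBS 1, 2 and 3 (9, 2 and 14 UMIs), and no UMI was seen in any bleomycin library. A count of 0 allows 3 UMIs, or 8.22 CPM over the 365177 UMIs of that group. The pooled PBS level of 30.7 CPM was 3.74 times this floor. Bleomycin 3 held most of the 365177 UMIs, and without it the floor was 22.2 CPM and the ratio was 1.38. Neither ratio counts the error of the 25 PBS UMIs, so neither is a lower limit. The gene was under the count filter, so it had no test. SARATg endothelial cells held 3 Vegfc UMIs under PBS (14.1 CPM) and 0 under bleomycin, where 3 UMIs would be 21.3 CPM, so no difference was detectable at this depth.

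**Figure D2:**
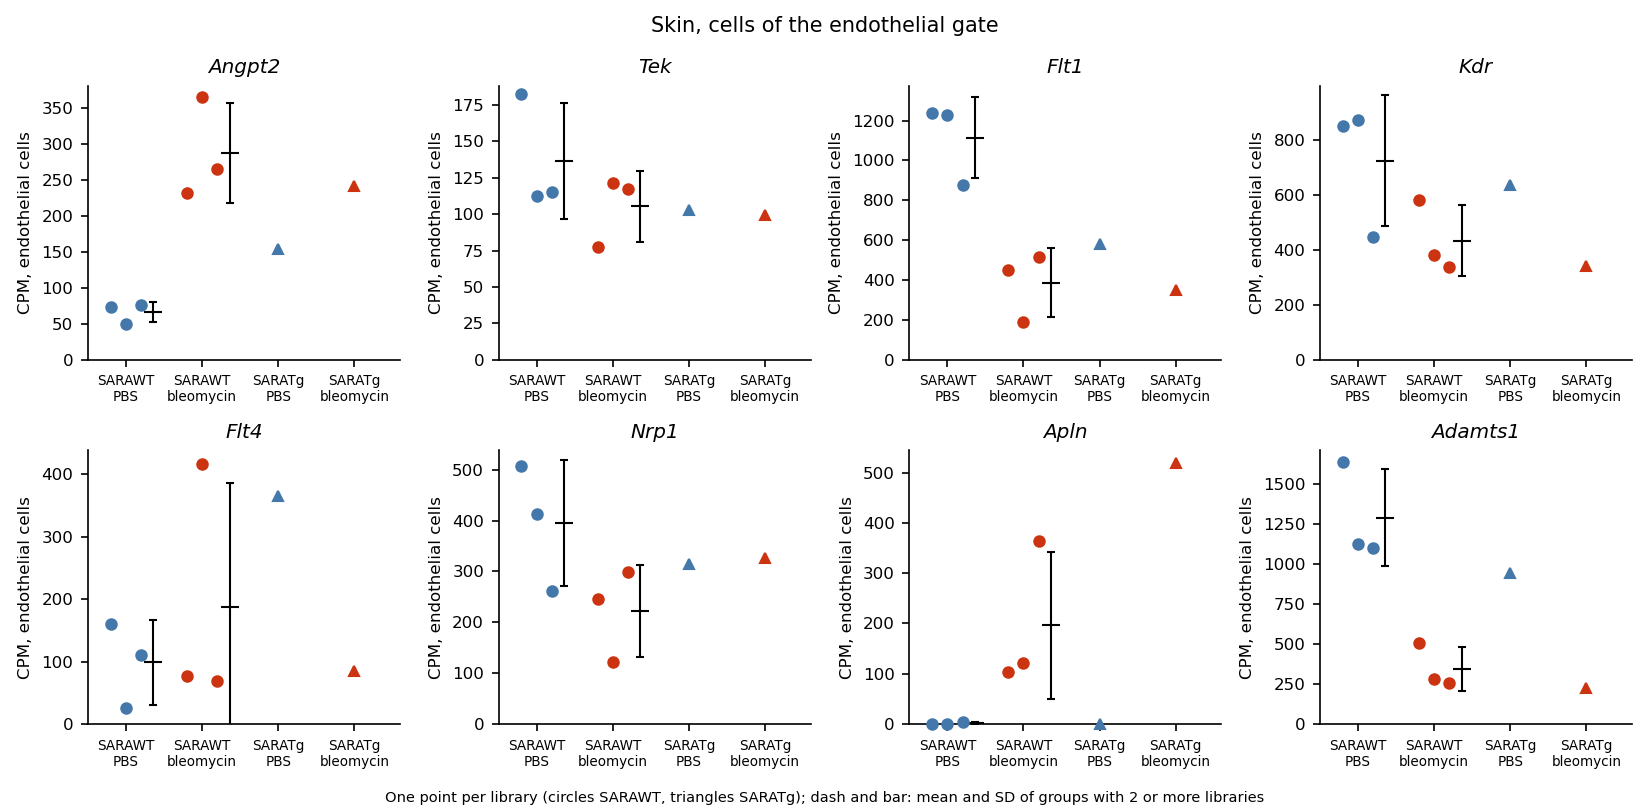
CPM in skin endothelial cells for 6 of the 10 genes and for Apln and Adamts1, with 1 point per library (circles SARAWT, triangles SARATg) and the mean and SD of each group of 3. Angpt2 lies at 50.1 to 76.0 CPM under SARAWT PBS and at 232 to 365 CPM under bleomycin, Flt1 runs the other way, and the bar of Flt4 under bleomycin reaches below 0 and stops at the axis.

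The endothelial gate mixed 2 kinds of vessel. Cells with at least 2 lymphatic markers (from Prox1, Lyve1, Mmrn1, Ccl21a, Pdpn and Reln) numbered 75 of the 264, and they differed from the other 189 in most receptors when UMIs were pooled over libraries. Flt4 was 416 CPM in the lymphatic-marker cells (95% exact Poisson interval 358 to 480) and 43.2 CPM in the others (31.8 to 57.5). Flt1 was 11.2 CPM against 1080 CPM. Nrp1 had 0 UMIs among 446957 in the lymphatic-marker cells and stood at 461 CPM in the others. Kdr was 528 CPM (463 to 600) and 555 CPM (511 to 601), with overlapping intervals. Tek was 69.4 CPM against 144 CPM, and all 28 Vegfc UMIs were in the other endothelial cells.

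Pooled over libraries, Angpt2 was higher in the lymphatic-marker cells, at 289 CPM (241 to 343) against 89.3 CPM (72.4 to 109). These intervals cover counting error only, and 38 of the 129 UMIs in lymphatic-marker cells came from 4 cells of bleomycin 3. The lymphatic-marker share of endothelial cells was 27.1, 14.3 and 30.0% under PBS and 23.1, 50.0 and 11.8% under bleomycin, so it did not move one way. In the other endothelial cells alone Angpt2 was 45.6, 59.0 and 56.2 CPM under PBS and 163, 167 and 110 CPM under bleomycin, the middle bleomycin value from 5 cells. With lymphatic-marker cells left out, a choice made after seeing the data, the edgeR log2 fold change was 1.28 (adjusted p = 0.251), and that of Flt1 was -1.23 (adjusted p = 0.149). Lymphatic-marker cells held 122, 0 and 130 CPM of Angpt2 under PBS and 352, 418 and 1826 CPM under bleomycin, values that rest on 19, 2 and 18 cells and on 3, 5 and 4 cells. Over the 3 libraries with at least 10 such cells, which were SARAWT PBS 1 and 3 and SARATg PBS, their mean was 163 ± 64.3 CPM (SD). The other endothelial cells had a mean of 99.9 ± 59.6 CPM over 7 libraries of both treatments, so the means lay within 1 SD.

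Genes of the wider pathway gave few calls in skin endothelial cells. Of the list of endothelial VEGF, Notch and nitric oxide response genes, 18 of 20 were tested, 1 rose and 0 fell, with a median log2 fold change of -0.13 beside 0.02 over all genes. The gene that rose was Apln, which encodes the ligand of the apelin receptor and is known from sprouting tip cells. It had 0, 0 and 2 UMIs in the PBS libraries and 8, 7 and 84 UMIs under bleomycin (edgeR log2 fold change 6.19, adjusted p = 0.043). Apln passed the count filter only through the bleomycin libraries, where it was high, so its call is not independent of that filter. Pooled over libraries its CPM ratio was 110 (interval 29.8 to 924), or 45.2 (10.5 to 408) without bleomycin 3. These intervals rest on pooled UMIs and leave out the spread between libraries. The SARATg libraries held 0 Apln UMIs under PBS and 73 under bleomycin. Apln stayed past the threshold with the block (adjusted p = 0.0146) and without PBS 2, bleomycin 1 or bleomycin 2 (0.013 to 0.0326), fell under the count filter without PBS 1, PBS 3 or bleomycin 3, and did not pass against PBS 2 alone (0.297). Of the angiogenesis inhibitors, 4 of 8 were tested and 1 fell. That gene, Adamts1, a secreted protease that can sequester VEGF-A, was 1638, 1127 and 1100 CPM under PBS and 504, 278 and 256 CPM under bleomycin (edgeR log2 fold change -1.91, adjusted p = 0.0439), and 941 and 227 CPM in SARATg. Adamts1 lost its call with the block (adjusted p = 0.0596) and without any 1 library (0.0533 to 0.19). None of the 4 tested of 8 other ligands and receptors, the 8 tested of 20 HIF and hypoxia genes or the 5 tested of 12 semaphorins and plexins passed, with 1, 4 and 1 at an unadjusted p under 0.05 and 13.9% of all genes there.

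In all skin cells together, Tek and Flt1 were lower and Vegfa was higher under bleomycin. No member passed the threshold in the main edgeR fit, with all 6 libraries, the count filter and no block or covariate. A sum over all cells moves with the mix of cells, and fewer cells of a type and less RNA per cell cannot be told apart in it. Tek was 7.76, 16.4 and 2.37 CPM in the libraries labelled PBS 1, 2 and 3 and 0.728, 0.779 and 0.658 CPM under bleomycin, so the groups did not overlap. Its edgeR log2 fold change was -3.37 (SE 0.671, adjusted p = 0.0775), where 0 of 15335 genes passed (0%). An unadjusted p under 0.05 was found for 18.3% of them, and 8.64% passed with DESeq2. With the replicate block 3.81% of genes were called, Tek among them at -3.02 (adjusted p = 0.0437), and against PBS 2 alone, the PBS library with the highest Tek and the most shared barcodes, Tek was at -4.35 (adjusted p = 0.0457). Without PBS 3 alone edgeR called Tek (-3.85, adjusted p = 0.0181) and Flt1 (-2.17, adjusted p = 0.0451).

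Flt1 in all skin cells was 25, 60.2 and 23.3 CPM under PBS and 5.66, 8.57 and 10.4 CPM under bleomycin, again without overlap. The edgeR log2 fold change was -1.96 (SE 0.427, adjusted p = 0.085), and the block brought the adjusted p to 0.0396. Against PBS 2 alone it was -2.71 (adjusted p = 0.0835). Vegfa was 66.5, 81.5 and 51.9 CPM under PBS and 134, 76.5 and 132 CPM under bleomycin, where 1 bleomycin library fell within the PBS range (log2 fold change 0.93, SE 0.253, edgeR adjusted p = 0.123, 0.131 with the block, 0.448 against PBS 2 alone, DESeq2 0.0256). Kdr was 13.9, 30.1 and 10.3 CPM against 10.3, 8.07 and 10.3 CPM (log2 fold change -0.73, edgeR adjusted p = 0.372, and -1.50 with adjusted p = 0.129 against PBS 2 alone). The remaining members had adjusted p of at least 0.45, among them Vegfb, which varied between 14.3 and 18.6 CPM in all 8 skin libraries. SARATg libraries ran the same way for Tek (1.87 and 0.536 CPM), Flt1 (25.9 and 7.96 CPM) and Vegfa (45.7 and 91.1 CPM).

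**Figure D3:**
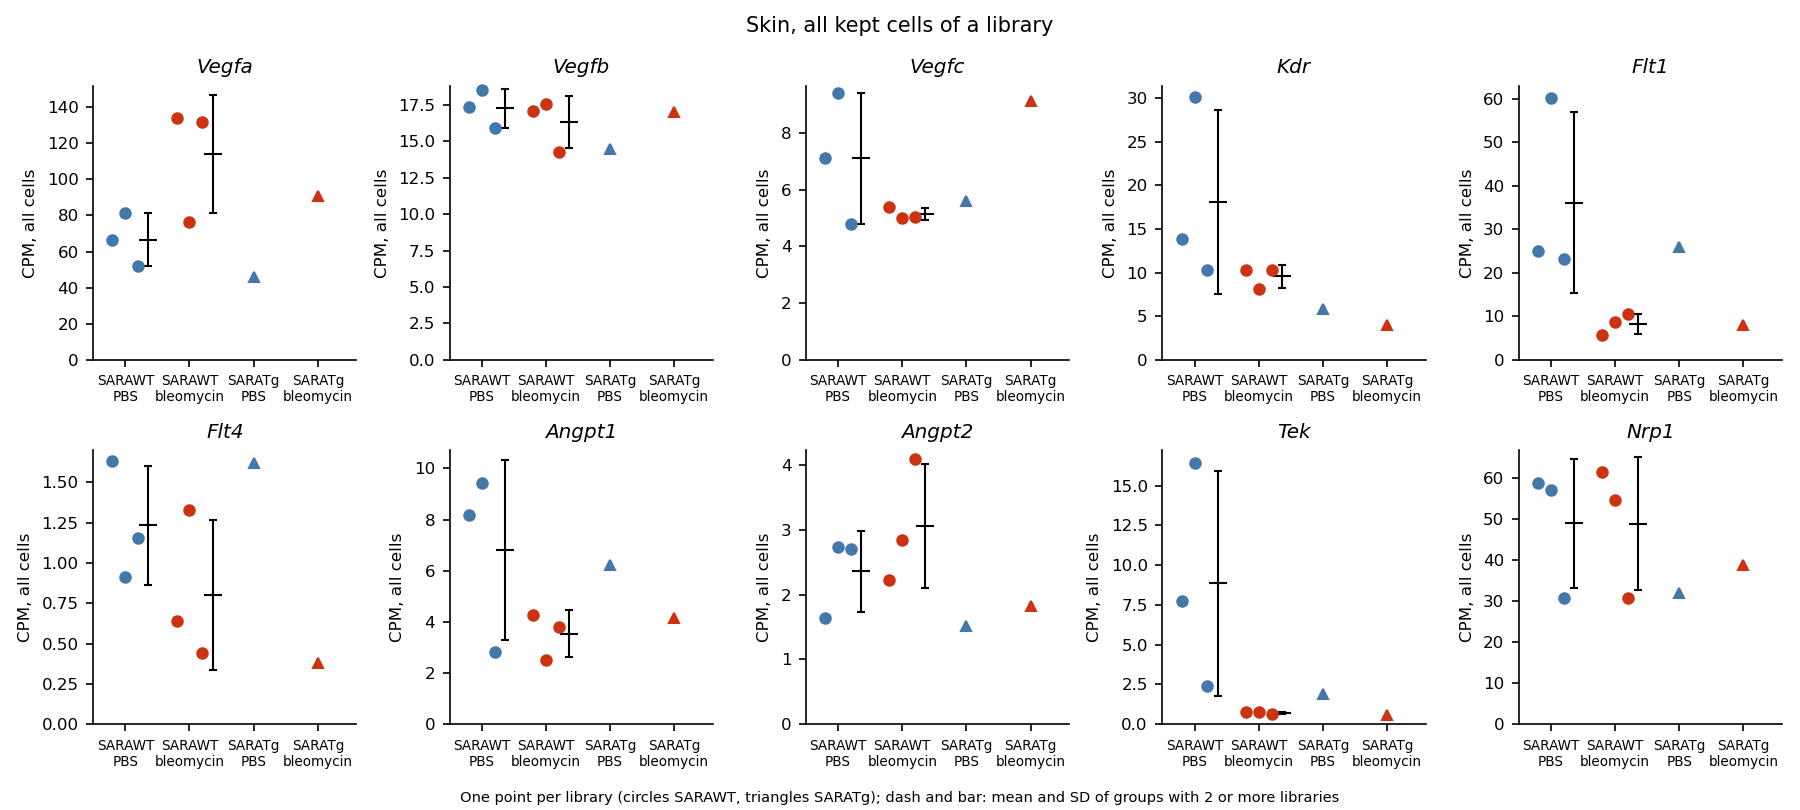
CPM of the 10 genes over all kept cells of each skin library, with 1 point per library (circles SARAWT, triangles SARATg) and the mean and SD of each group of 3. Tek and Flt1 lie lower in all 3 bleomycin libraries than in any SARAWT PBS library, and Vegfb keeps to 14.3 to 18.6 CPM throughout.

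The endothelial and mural shares of skin cells were lower under bleomycin. Endothelial cells were 1.72, 1.79 and 1.29% of cells under PBS and 0.603, 0.461 and 0.519% under bleomycin, a difference in means of -1.07 percentage points (exact two-sided permutation test, p = 0.1, the smallest that 3 against 3 allows). In SARATg they were 0.988% and 0.349%. Mural cells were 0.491, 1.41 and 1.08% against 0.139, 0.461 and 0.137%, a difference of -0.75 points (exact permutation p = 0.1). Mural cells held 0 of the skin Tek UMIs and 0.43% of those of Flt1. Stromal cells, the class with most Tek UMIs, were 14.1, 17.8 and 6.92% of cells under PBS. Under bleomycin they were 6.03, 8.21 and 1.41%, with overlap, and this share had no test. The part of all these shares in the all-cell levels was not tested.

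Stromal cells held 64.3% of skin Tek UMIs when libraries were pooled, and 54.9 ± 24.5% as the mean over the 8 libraries (SD). This share was uneven, since bleomycin 3 held 2 stromal and 27 endothelial Tek UMIs, and bleomycin 2 held 7 and 7. Stromal Tek was 23.9, 59.6 and 11.7 CPM in the libraries labelled PBS 1, 2 and 3, and 4.49, 5.33 and 1.13 CPM under bleomycin, with no overlap. The median UMIs of these cells were 11514.5, 1084 and 14856 under PBS and 1269.5, 1150 and 14649.5 under bleomycin, lowest in PBS 2 and in bleomycin 1 and 2, and the part of this depth was not tested. The edgeR log2 fold change was -2.97 (SE 0.713, adjusted p = 0.0869), where 0.364% of genes were called. With the replicate block the adjusted p was 0.0248, where 4.97% of genes were called, and DESeq2, which called 5.89%, gave 0.000522. Against PBS 2 alone, which had the highest stromal Tek under PBS, the log2 fold change was -3.98 (edgeR adjusted p = 0.0901). In SARATg stromal cells Tek was 4.17 CPM under PBS and 1.52 CPM under bleomycin. Stromal cells held 2.83, 4.4 and 1.53 Tek UMIs for each Flt1 UMI under PBS, whereas endothelial cells of the same libraries held 0.148, 0.0918 and 0.131. Under bleomycin the ratio was 3.33, 7 and 0.286 in stromal cells, on 10, 7 and 2 Tek UMIs, and 0.171, 0.636 and 0.227 in endothelial cells. In SARATg PBS and bleomycin it was 0.726 and 0.625 in stromal cells and 0.177 and 0.286 in endothelial cells. The part of endothelial RNA in stromal droplets was not tested. Stromal Kdr, 18.1, 31.2 and 1.61 CPM under PBS and 0.898, 2.28 and 0.564 CPM under bleomycin, was under the count filter and had no test in the main fit. Without the library labelled PBS 3, the lowest of the PBS group, it passed the filter through PBS 1 and 2, where it was high. The call in that fit (log2 fold change -4.25, edgeR adjusted p = 0.0343) depends on that choice and gives no support for a difference. Stromal Flt1 had a log2 fold change of -2.13 (SE 0.564, edgeR adjusted p = 0.0983). Stromal Vegfc was 23.0, 35.2 and 26.9 CPM under PBS and 32.8, 41.1 and 46.2 CPM under bleomycin (log2 fold change 0.54, SE 0.251, edgeR adjusted p = 0.26), and stromal Angpt1 had a log2 fold change of -0.18 (SE 0.361, edgeR adjusted p = 0.817).

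In skin macrophages and monocytes Vegfa and Kdr were higher in each bleomycin library, without passing the threshold. Vegfa was 26.6, 50.0 and 86.4 CPM in the libraries labelled PBS 1, 2 and 3 and 233, 123 and 274 CPM under bleomycin. The edgeR log2 fold change was 1.98 (SE 0.504, adjusted p = 0.261), where 0.00883% of genes were called (1 gene). Kdr was 1.43, 2.63 and 5.51 CPM under PBS and 14.0, 12.9 and 15.0 CPM under bleomycin, levels far under those of endothelial cells (log2 fold change 2.11, SE 0.517, edgeR adjusted p = 0.249). Flt1 in the same cells was 12.1, 18.4 and 16 CPM against 4.85, 10.5 and 5.99 CPM (log2 fold change -1.03, SE 0.367, edgeR adjusted p = 0.38). Each was without overlap between treatments, but how many of all genes did not overlap was not counted. Each also had an unadjusted edgeR p under 0.05, as did 10.9% of all genes there. In T, NK and innate lymphoid cells Kdr had 0 UMIs in 5 of the same 6 libraries and 1 UMI in bleomycin 3 (0.142 CPM). Flt1 there was 0 to 1.23 CPM, with only 8 such cells in PBS 2, while keratinocytes held up to 37.3 CPM of Flt1. The part of free RNA in the macrophage values was not tested.

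Whether both genes passed in macrophages and monocytes depended on the libraries and the test. Without the library labelled PBS 3 the edgeR adjusted p was 0.0216 for Vegfa and 0.00871 for Kdr. Against PBS 2 alone it was 0.222 and 0.203. With all 6 libraries DESeq2 gave 0.00199 and 0.0125, with 2.11% of genes called, and edgeR with the gene list as a covariate gave 0.0342 and 0.0409. The block gave adjusted p of 0.0725 and 0.0805, with 0.185% called. SARATg macrophages and monocytes held 45.9 CPM of Vegfa under PBS and 125 CPM under bleomycin, and 1.34 and 6.23 CPM of Kdr. Nrp1 there was 103, 109 and 57.9 CPM against 110, 111 and 48.2 CPM. In dendritic cells Flt1 was 5.35, 134 and 4.23 CPM under PBS and 3.35, 0.429 and 0.757 CPM under bleomycin (log2 fold change -4.06, SE 1.47, edgeR adjusted p = 0.681), where the high value is 23 UMIs in the 13 dendritic cells of PBS 2, without which it was -1.65 (adjusted p = 0.879). In the same cells Vegfa had a log2 fold change of 1.64 (edgeR adjusted p = 0.697), which was 1.94 with the block (adjusted p = 0.0242, with 0.378% of genes called), and 60.9% of skin dendritic cells lay near the edge of their gate.

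**Figure D4:**
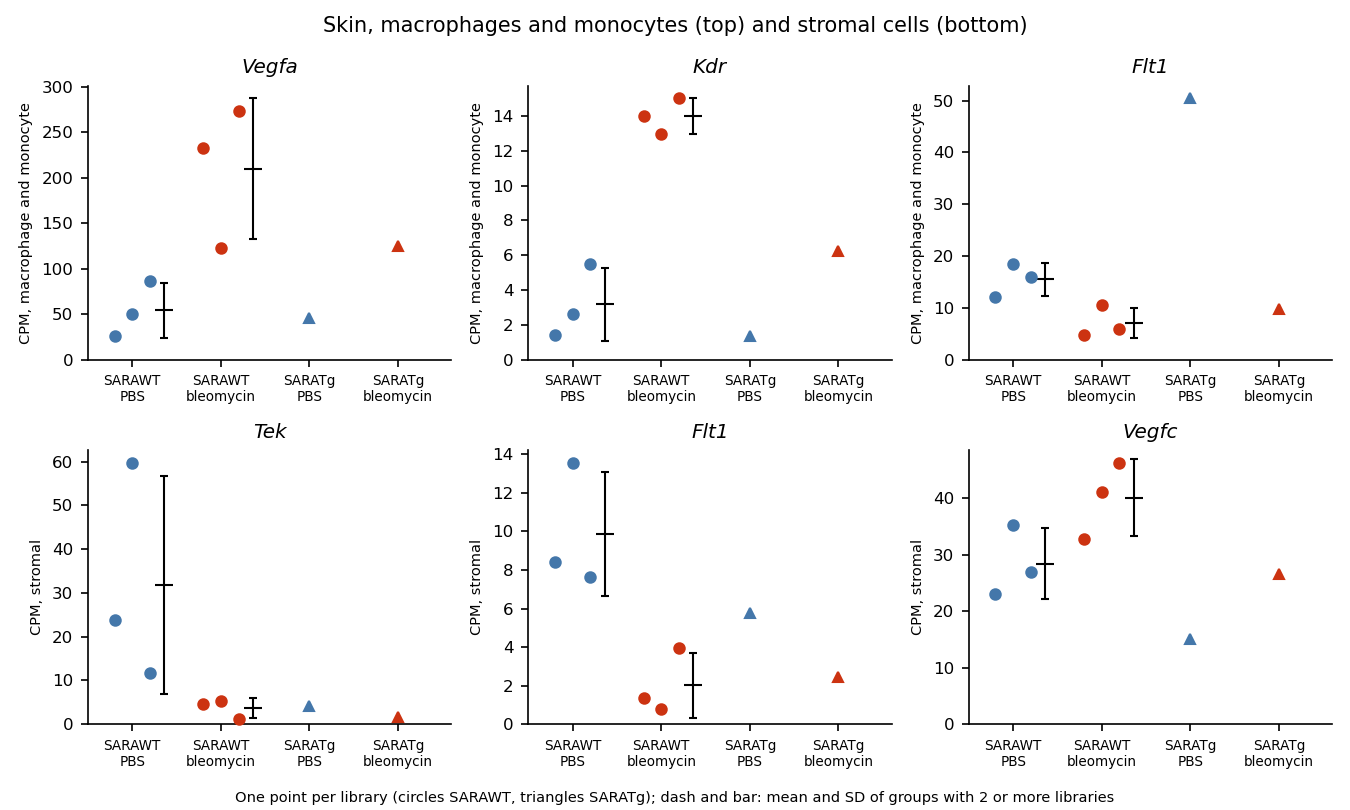
CPM in skin macrophages and monocytes (Vegfa, Kdr and Flt1, top) and in stromal cells (Tek, Flt1 and Vegfc, bottom), with 1 point per library (circles SARAWT, triangles SARATg) and the mean and SD of each group of 3. Macrophage Vegfa runs from 26.6 to 86.4 CPM under SARAWT PBS and from 123 to 274 CPM under bleomycin, and stromal Tek is at most 5.33 CPM under bleomycin.

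Other skin classes gave no member past the threshold in the main edgeR fit, and a few genes of the wider pathway. In muscle-lineage cells Angpt1 was 0 and 15.4 CPM in the libraries labelled PBS 1 and 3 and 55.4, 15.3 and 74.4 CPM under bleomycin (log2 fold change 2.10, SE 0.919, edgeR adjusted p = 0.253, and 0.0428 with the block). Nrp1 there was 0 and 34.7 CPM against 95.2, 39.8 and 112 CPM (log2 fold change 1.73, SE 0.73, edgeR adjusted p = 0.238, and 0.0306 with the block, where 4.95% of genes were called). PBS 2 held 1 such cell and was left out, so the block rests on 2 pairs, which did not deviate together in this class (correlations -0.03 and 0.04), and 48.1% of these cells lay near the edge of the gate. In stromal cells the Forkhead factor gene Foxo1 fell by 1.38 on the log2 scale (edgeR adjusted p = 0.0463), and Sema3c, a secreted semaphorin, fell by 2.03 (adjusted p = 0.0467). These calls held in 7 and 8 of 17 alternatives and were lost in 10 and 9, with adjusted p of up to 0.389 and 0.391. Leaving out any 1 library lost the Foxo1 call (0.0543 to 0.211), and leaving out any 1 but PBS 3 lost that of Sema3c (0.0737 to 0.211, and 0.0323 without PBS 3). In muscle-lineage cells, where 0.734% of genes were called, Serpinf1, which encodes the antiangiogenic factor PEDF, rose by 2.59 (edgeR adjusted p = 0.0486). This call held in 6 of 13 alternatives, with adjusted p of up to 0.356, and among single libraries left out only the loss of bleomycin 3 kept it (0.0461, against 0.084 to 0.178), where the fits without PBS 1 or PBS 3 had 1 PBS library left. Schwann cells had the most, 10 of the 34 list genes tested, where 5.9% of all genes were called. PBS 2, with 6 such cells, was left out of that fit, and the median UMIs of these cells were 4834.5 and 6818 in PBS 1 and 3 and 16960, 15049 and 15420 under bleomycin. The part of this depth was not tested. Of these 10, Nrp2, a co-receptor for VEGF-C and semaphorins, Egr3, Klf4, Ndrg1 and Adamts1 fell by 1.24, 1.52, 1.35, 1.33 and 0.90, and Sema3d, a semaphorin, fell by 5.01. Ldha and Pgk1, enzymes of glycolysis, rose by 1.73 and 1.38, and Col18a1 and Thbs2, which encode the source of endostatin and thrombospondin-2, rose by 1.32 and 1.39. Cells of the Schwann gate carried a median of 3 of 8 stromal markers beside 6 of 8 of their own. Each of the 10 calls held in 5 (Adamts1) to 11 (Col18a1) of 15 alternatives, 2 of which left 1 PBS library.

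In the kidney, AA was compared with vehicle in SARAWT to ask the same after tubule injury, and no member passed the threshold in any class. Over all cells 0 of 15977 genes were called (0%), with 9.7% at an unadjusted p under 0.05 and 0.534% called by DESeq2, and the lowest unadjusted p of a member was 0.144 (edgeR). Vegfa was 81.7, 92.4 and 22.9 CPM under vehicle and 21.0, 60.3 and 22.3 CPM in the libraries labelled AA 1, 2 and 3 (log2 fold change -1.08, SE 0.666, edgeR adjusted p = 0.453). Proximal tubule cells numbered 6728, 7271 and 818 in the vehicle libraries and 442, 841 and 438 under AA, and their part in the all-cell level was not tested. They were 76.3, 72.3 and 11.8% of cells under vehicle and 6.04, 21.0 and 8.28% under AA. T, NK and innate lymphoid cells were 3.97, 4.18 and 47.2% against 53.4, 49.0 and 63.1%. In both classes vehicle 3 was unlike vehicle 1 and 2 and near the AA libraries, which widens the spread under vehicle. Leaving out any 1 library, that labelled AA 1 included, called no member in any class. Within proximal tubule Vegfa was 87.1, 102 and 98.6 CPM under vehicle and 133, 143 and 123 CPM under AA, with no overlap. These CPM lack the library scaling (TMM) of the fit, where the log2 fold change was 0.25 (SE 0.18, edgeR unadjusted p = 0.204, adjusted p = 0.54). In that fit 0 of 12285 genes were called and 8.99% had an unadjusted p under 0.05. The one list gene past the threshold under AA was Ldha in intercalated cells, which rose by 1.88 (edgeR adjusted p = 0.0405, with 0.402% of genes called). The call held in 7 of 12 alternatives and was lost with a stricter gate (0.154) and without AA 1, AA 3, vehicle 1 or vehicle 2 (0.0583 to 0.151). The last 2 of these fits had 1 vehicle library left, assumed to vary like the AA libraries. Vegfb in intercalated cells was 167 and 233 CPM in vehicle 1 and 2 and 303, 279 and 318 CPM under AA, without overlap (log2 fold change 0.62, SE 0.244, edgeR adjusted p = 0.185), and vehicle 3, with 3 such cells, was left out of that fit. In the distal convoluted tubule gate Vegfb was 196, 242 and 282 CPM under vehicle and 325, 409 and 274 CPM under AA, with overlap (log2 fold change 0.52, SE 0.236, edgeR adjusted p = 0.312). Both had an unadjusted p under 0.05, as did 21.3% and 15.8% of all genes in these fits. In proximal tubule the log2 fold change of Vegfb was -0.10 (SE 0.236, edgeR adjusted p = 0.856).

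Kidney endothelial cells were unevenly supplied, with 1.65, 1.10 and 2.52% of cells under vehicle and 1.69, 0.550 and 0.0567% in the libraries labelled AA 1, 2 and 3 (exact permutation p = 0.3). AA 3 held 3 endothelial cells and was left out of that fit. Across the other 5 libraries none of the 8 members tested passed, and the log2 fold changes were -0.87 for Tek (SE 0.371), -0.25 for Flt1 (SE 0.338) and -0.57 for Kdr (SE 0.483). Tek alone had an unadjusted edgeR p under 0.05. No gene of 7537 was called there and 3.13% had an unadjusted p under 0.05. Angpt2, which rose in skin endothelial cells, was 32.5, 82.1 and 39.8 CPM under vehicle and 21.7 and 33.7 CPM in AA 1 and 2 (log2 fold change -0.99, SE 0.541). The skin and kidney differ in treatment as well as tissue, and the difference between them was not tested.

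The vehicle kidneys of SARATg and SARAWT were compared to ask whether the transgene alone moved these genes. Over all cells the endothelial receptors were higher in both SARATg libraries. Yet the main edgeR fit called no gene of 16264 (0%), with 2.87% at an unadjusted p under 0.05. Kdr was 9.25, 4.37 and 11.3 CPM under SARAWT vehicle and 117 and 50.1 CPM under SARATg vehicle (log2 fold change 3.24, SE 0.603, edgeR adjusted p = 0.999). Flt1 was 11.1, 7.26 and 28.5 CPM against 135 and 88.6 CPM, and Tek was 3.26, 2.48 and 6.59 CPM against 29.9 and 15.7 CPM. In all, 6 of the 10 members had an unadjusted edgeR p under 0.05, namely Kdr, Flt1, Flt4, Tek, Nrp1 and Vegfc. None of these overlapped between the groups, but how many of all genes did not overlap was not counted. DESeq2 called Kdr (adjusted p = 0.0024) and Flt1 (adjusted p = 0.0366), with 0.549% of genes called.

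The same libraries held more endothelial cells. These were 12.3 and 6.42% of cells in SARATg vehicle, against 1.76 ± 0.714% in SARAWT vehicle (exact two-sided permutation test, p = 0.2, the smallest that 2 against 3 allows). Within the endothelial class no member had an unadjusted p under 0.05 (9 tested, 4.11% of all genes), and the log2 fold changes were 0.61 for Kdr (SE 0.436), 0.49 for Flt1 (SE 0.28) and -0.11 for Tek (SE 0.309). Endothelial Kdr was 1558, 757 and 494 CPM under SARAWT vehicle and 1611 and 1117 CPM under SARATg vehicle, so the groups overlapped. In proximal tubule cells, 3 of the 9 members tested had an unadjusted p under 0.05, beside 3.05% of all genes, and these were the endothelial receptors at low levels. Flt1 there was 0.461, 0.541 and 0.294 CPM under SARAWT vehicle and 3.02 and 2.26 CPM under SARATg vehicle, Kdr was 0.39, 0.302 and 0.098 CPM against 2.97 and 1.2 CPM, and Tek was at most 0.123 CPM against 0.948 and 0.771 CPM (edgeR adjusted p = 0.988 for each). The same libraries held the larger endothelial shares, and the part of free endothelial RNA in these tubule values was not tested. In principal cells Vegfa had a log2 fold change of 1.73 (SE 0.419, edgeR adjusted p = 0.124, with 0.404% of genes called). The library labelled SARATg AA held 2.87% endothelial cells and 17.2 CPM of Kdr, 25 of Flt1 and 5.50 of Tek over all cells.

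**Figure D5:**
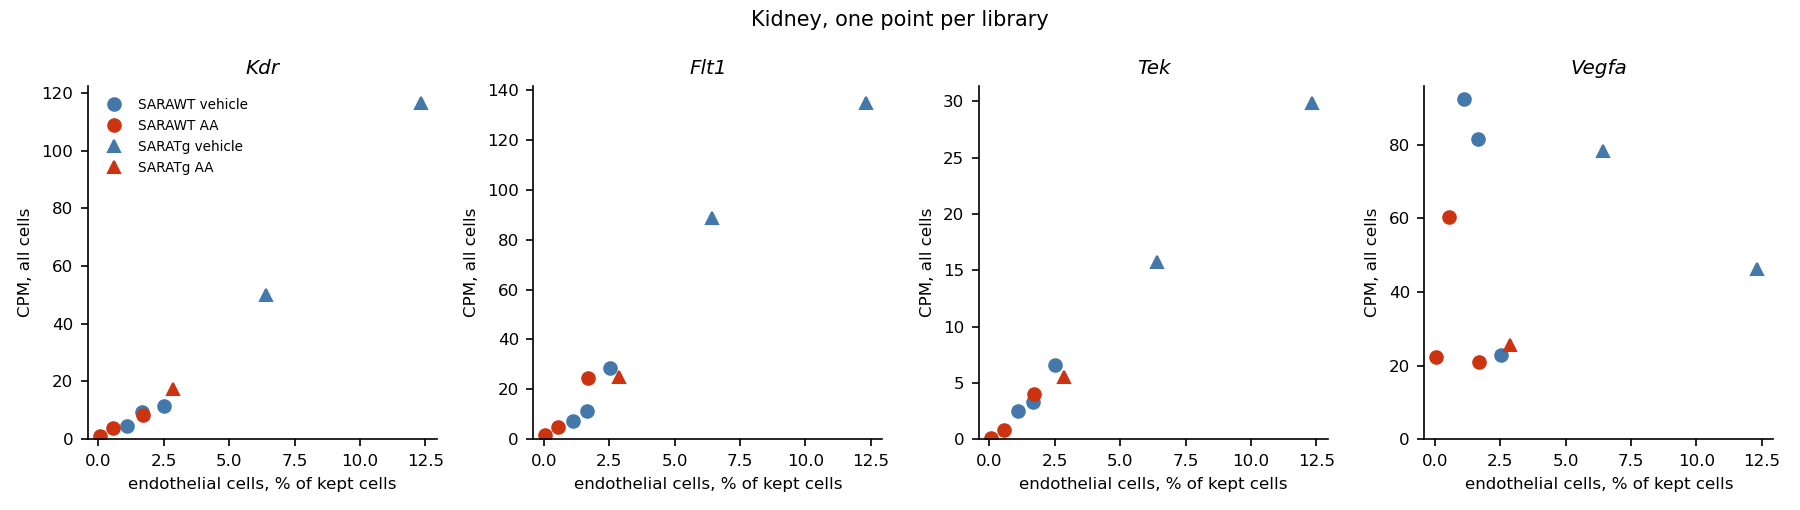
CPM of Kdr, Flt1, Tek and Vegfa over all cells of each kidney library against the endothelial share of its cells in percent, with 1 point per library (circles SARAWT, triangles SARATg, blue vehicle, red AA). The 2 SARATg vehicle libraries have the highest endothelial shares, 12.3 and 6.42%, and the highest Kdr, Flt1 and Tek, while Vegfa does not follow the share.

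Whether the treatment effect differed between genotypes was tested as an interaction over all cells, where the single SARATg libraries were assumed to vary like the SARAWT groups. Skin had 1 SARATg library per treatment and kidney 1 SARATg AA library, so the test cannot decide the question. In skin 0 of 18078 genes were called (3.08% at an unadjusted p under 0.05, and 0.244% called by DESeq2), and in kidney 0 of 17927 (2.59%, and 0.112% by DESeq2). No member had an unadjusted edgeR p under 0.05 in either tissue. The lowest were 0.142 for Vegfc in skin and 0.332 for Kdr in kidney. The kidney test rests on the 1 library labelled SARATg AA, whose Zfyve9 went against its label, and the skin test was not run without both PBS 1 and 3.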

How the data were processed

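Single-cell RNA libraries (10x 3′ tags) of sorted GFP+ cells from 8 skin and 9 kidney samples were used. The deposited values are UMI counts of each gene in each barcode, not normalized. Cell Ranger made them on mm10 (versions 4.0.0, 3.1.0 and 3.0.2 per the file headers). The submitters' processing notes also list Seurat 2.3.4. In 4 skin libraries counting used a longer gene list (32286 genes against 31053), and the 30406 shared genes were kept.

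A barcode was kept if it had 200 genes or more and no more than 20% of UMIs from mitochondria (30085 of 31972 in skin, 61744 of 75562 in kidney). A cell entered a class with at least 3 of its markers on and a lead of 25% of the marker list over any other class, and cells with markers of a second class were left ungated (11.3% in skin, 5.50% in kidney). No doublet caller was run, and the top 5% of cells by UMIs were left out as an alternative. UMIs were summed per library and class, given as CPM, and compared by the quasi-likelihood test of edgeR 4.0.16 in R 4.3.3 (TMM scaling after filterByExpr), with Benjamini-Hochberg adjusted p under 0.05 as the threshold. A class needed 10 cells per library and, with all libraries in the fit, 2 libraries per group. Some fits that leave libraries out have 1 library in a group, which is assumed to vary like the other group. DESeq2 1.42.0 was an alternative. Promoters came from RefSeq. Cell shares were compared by exact permutation.

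The main fits did not pair libraries. An alternative fit, the replicate block, took the numbers of the SARAWT skin libraries as pairs. Same-numbered libraries deviated together over all cells (correlations 0.129 to 0.527, each over 0.1). Libraries 1 and 2, which share a gene list, also correlated across numbers (0.187 and 0.213), while library 3 did not correlate with them (-0.403 to -0.267), so the block also follows the gene list. Skin endothelial cells (-0.00 to 0.165) and the kidney AA comparison did not show this over 3 pairs. The SARATg vehicle comparison has 2 pairs (0.181 and 0.213 over all cells), too few to take as paired.

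The genes named were the 10 members, the genes of 5 pathway lists past the threshold (at most 4 per list and direction, by size) and the 3 genes most like each member. Members and lists were chosen with earlier results of these data known.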

Additional observations from a re-analysis of the deposited data

How the results depend on the processing

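Counts of members past the threshold kept no fixed value. A percentage in brackets is the share of all genes called in that fit, and settings without one have only the ranges of genes called below. In all skin cells (0 members) DESeq2 gave 3 (8.64%), no count filter 2, the replicate block 2 (3.81%) and a separate gene list 1. Leaving out single libraries gave 0 to 2 there. In skin endothelial cells (1 member, Angpt2) DESeq2 gave 2 (2.85%) and no filter 3. The replicate block, shared barcodes left out, stricter cells, a stricter gate, both libraries labelled PBS 1 and 3 left out, lymphatic-marker cells left out and every single library left out (0 to 0) each gave 0. In macrophages and monocytes (0) DESeq2 (2.11%) and the gene list gave 2, no filter 1 and single libraries 0 to 2. In stromal cells (0) DESeq2 (5.89%), the gene list and the replicate block (4.97%) gave 1, no filter 2 and single libraries 0 to 1. In dendritic cells no filter and the replicate block (0.378%) gave 1, in keratinocytes no filter gave 1, and in muscle-lineage cells the replicate block gave 2 (4.95%). For SARATg against SARAWT vehicle kidney (0 in each class) all cells gave 2 with DESeq2 (0.549%). The replicate block gave 5 there, beside 588 genes called in all, where only 2 pairs exist and vehicle 3 has none. B cells gave 1 and principal cells 2 with no filter. Proximal tubule gave 1 with DESeq2 (36 genes in all) and thick ascending limb 1 with the replicate block (101 genes in all). Counts without single libraries are not given for this comparison, since some such fits had 1 library in a group. No share difference reversed, nor any member with an unadjusted edgeR p under 0.05, while smaller differences of other members changed sign under some settings. Among pathway genes Adm in skin endothelial cells, not called (1.54), was -0.04 with lymphatic-marker cells left out. Kidney replicate numbers did not deviate together under AA (correlations -0.379 to 0.417 over all cells). Genes called in all over the alternatives ran from 0 to 1322 (main 0) in all skin cells, 0 to 222 (11) in skin endothelial cells, 0 to 770 (1) in macrophages and monocytes, 0 to 686 (37) in stromal, 0 to 389 (36) in muscle-lineage and 10 to 927 (372) in Schwann cells, 0 to 366 (18) in intercalated cells and 0 to 5494 (0) in all kidney cells under AA and 0 to 771 (0) in SARATg against SARAWT kidney. The share differences kept their direction, from -1.23 to -0.978 points for skin and -1.46 to -0.612 for kidney endothelial cells without single libraries. Endothelial sums of 10 to 70 cells limit what the skin comparison can show.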

Other observations

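Over the mean levels of 22 tissue and class combinations and 14090 genes, the genes most like each member were found by Pearson correlation of log2(CPM + 1), a description in which combinations share libraries. For Kdr these were Sox18, Aplnr and Ptprb (0.941, 0.937 and 0.937), for Flt1 Kdr, Cd300lg and Arhgef15 (0.929, 0.921 and 0.897), and for Tek Meox1 (0.984), Dchs1 and Sox18 (0.972). Flt4 was most like Robo4 (0.985), Myct1 and Nr5a2, Angpt2 most like Scgb3a1 (0.887), Snrk and Syt15, and Nrp1 most like Cyp20a1 (0.801), Sav1 and Zdhhc17 (0.795). Among the ligands, Vegfa was most like Tob1, Chka and Neat1 (0.897, 0.844 and 0.843), Vegfb most like Immt, Ndufa5 and Atp5g3 (0.978, 0.962 and 0.959), which encode mitochondrial proteins, Vegfc most like Meis2 (0.851), Prtg and Tll1, and Angpt1 most like Smarca1 (0.841), Pwwp3b and Ror1.

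Mural cells of the kidney, 55 in all, held 110 CPM of Angpt2 and 240 CPM of Nrp1 when pooled over libraries, and kidney stromal cells held 22 Tek UMIs (50.7 CPM).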
